A study of Homo sapiens with 8 samples.

Results

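The 10 chemokine genes CXCL1, CXCL2, CXCL3, CXCL6, CXCL8, CXCL10, CXCL11, CCL2, CCL5 and CCL20 were followed in human neuroblastoma cell lines treated with ciclopirox, out of 19774 genes on the array. They were listed as chemokines induced by ciclopirox in SKNAS and its derivative, a choice that used the measured changes, so their ciclopirox changes are given as a description and no p-value for them in that contrast is used. Each gene was represented by the probe set, among those annotated to that gene alone, with the highest mean over the arrays. The name of the list held for 7 of the 10 genes. CXCL1, CXCL3 and CXCL6 stayed near the background of the array in every line, and CXCL2 was higher on 1 of its 3 probe sets.

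The study measured total RNA on 8 expression arrays, 1 for each of 4 lines under vehicle and under 2.5 µM ciclopirox, both for 48 h. Ciclopirox, an antifungal, binds iron. The lines used were SKNAS (SK-N-AS), NB1691, SKNBE2 (SK-N-BE(2)) and SKNAS/shHIF1a, a SKNAS derivative carrying a short hairpin RNA against HIF1A, which encodes the alpha subunit of the hypoxia-responsive transcription factor HIF-1. All lines grew in RPMI medium with fetal calf serum. The labels give c-Myc as the Myc status of SKNAS and N-Myc for the other lines, the derivative included. Whether the derivative is 1 clone or a pool is not given in the sources used here, and the labels do not tie arrays to independent cultures, so a p-value here covers only the spread between these arrays, which may be technical. SKNAS and SKNAS/shHIF1a are 1 line before and after modification and are called the SKNAS-derived lines below.

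Levels are log2 values, so a difference of 1 is 2-fold. Genes whose mean over the arrays reached log2 3.21, the 40th percentile of all probe set means, were tested, 14517 in number. The filter was passed by 7 of the 10 chemokines. Of these, CXCL2, CXCL8, CXCL10, CXCL11 and CCL5 had means over NB1691 and SKNBE2 alone below it. CXCL1, CXCL3 and CXCL6 did not pass. The array medians lay between 3.47 and 3.52.

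HIF1A, the target of the hairpin, read 12.25 under vehicle and 11.94 under ciclopirox in SKNAS, and 11.71 and 11.09 in SKNAS/shHIF1a. The knockdown difference, here and below the derivative minus its parent, was -0.69 ± 0.18 (SE, limma, adjusted p = 0.154). HIF1A was thus lower in both pairs of arrays but not past the test. No line with a control hairpin was among the arrays. An effect of the hairpin therefore cannot be told apart from other differences between the derivative and its parent. MYC read 10.16 and 9.10 in SKNAS, 9.86 and 9.23 in SKNAS/shHIF1a, and between 2.66 and 3.28 in NB1691 and SKNBE2. MYCN read 2.77 and 3.36 in SKNAS, 5.41 and 5.65 in SKNAS/shHIF1a, and between 11.77 and 12.53 in NB1691 and SKNBE2. Of 7 measured noradrenergic neuroblastoma markers, 6 or 7 reached the level filter on every array, with CHGA between 10.72 and 13.15. Their summed log2 level lay between 45.84 and 52.61 in the SKNAS-derived lines and between 66.01 and 69.82 in the others. TH, the rate-limiting enzyme of catecholamine synthesis, stayed between 3.15 and 3.59 in the SKNAS-derived lines against 6.32 to 7.99 in the others. DBH read 4.37 to 5.72 against 9.97 to 10.90, and PHOX2A 6.93 to 7.81 against 9.94 to 10.18. ISL1 and GATA3 were also lower there, while HAND2 and CHGA overlapped.

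Chemokines are small secreted proteins that bind receptors on leukocytes and direct their migration. CXCL1, CXCL2, CXCL3, CXCL6 and CXCL8 act on CXCR1 or CXCR2 and attract neutrophils. CXCL10 and CXCL11 act on CXCR3 on activated T cells and are known as interferon-inducible genes. CCL2 attracts monocytes through CCR2, CCL5 attracts T cells and monocytes, and CCL20 is the ligand of CCR6. Many chemokine promoters carry binding sites for NF-kB, a transcription factor activated by interleukin-1, tumour necrosis factor and Toll-like receptors.

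Promoter sequences were held for 8 of the 10 chemokines in the RefSeq table (GRCh38.p14), and CCL2 and CCL5 are named only. In the 250 bases before each gene's start, both strands were searched for the kB motif of NF-kB, for the AP-1 motif TGANTCA and for the interferon-stimulated motif, a pair of GAAA blocks 2 bases apart. The first sequences shown are the 60 bases around the kB match of the neutrophil chemokines at or near background, together with CXCL2, because they carry the same site as one another. Capitals mark the match, read 5′ to 3′ on the strand of the gene.

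CXCL1: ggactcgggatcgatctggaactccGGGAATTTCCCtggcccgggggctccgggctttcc
CXCL2: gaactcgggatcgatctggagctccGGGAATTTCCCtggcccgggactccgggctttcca
CXCL3: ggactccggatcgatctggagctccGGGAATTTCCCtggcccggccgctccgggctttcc
CXCL6: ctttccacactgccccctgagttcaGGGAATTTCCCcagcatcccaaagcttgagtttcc

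These windows lie at chr4:73869289-73869348 (plus strand) for CXCL1, chr4:74099239-74099298 (minus) for CXCL2, chr4:74038734-74038793 (minus) for CXCL3 and chr4:73836563-73836622 (plus) for CXCL6. In each of the 4, the capitals hold a kB match on both strands, shifted by 1 base.

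The promoters of the chemokines with the larger changes are shown over the whole 250 bases. Capitals mark kB, AP-1 and interferon matches and, in CXCL8, the 9 letters GGAATTTCC.

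CXCL8: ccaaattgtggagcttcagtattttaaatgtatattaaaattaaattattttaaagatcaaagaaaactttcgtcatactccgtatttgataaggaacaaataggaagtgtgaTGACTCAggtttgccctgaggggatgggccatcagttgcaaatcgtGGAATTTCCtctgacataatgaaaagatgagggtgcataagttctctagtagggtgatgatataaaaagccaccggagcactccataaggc
CXCL10: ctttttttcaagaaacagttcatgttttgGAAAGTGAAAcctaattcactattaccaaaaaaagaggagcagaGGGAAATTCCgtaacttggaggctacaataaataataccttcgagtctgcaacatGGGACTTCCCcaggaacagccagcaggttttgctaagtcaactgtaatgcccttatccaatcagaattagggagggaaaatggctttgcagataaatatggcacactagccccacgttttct
CXCL11: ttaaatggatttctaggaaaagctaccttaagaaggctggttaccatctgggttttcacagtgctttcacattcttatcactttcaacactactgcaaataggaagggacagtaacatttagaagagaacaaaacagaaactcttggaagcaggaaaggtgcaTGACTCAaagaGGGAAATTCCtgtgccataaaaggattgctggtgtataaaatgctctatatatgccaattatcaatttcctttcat
CCL20: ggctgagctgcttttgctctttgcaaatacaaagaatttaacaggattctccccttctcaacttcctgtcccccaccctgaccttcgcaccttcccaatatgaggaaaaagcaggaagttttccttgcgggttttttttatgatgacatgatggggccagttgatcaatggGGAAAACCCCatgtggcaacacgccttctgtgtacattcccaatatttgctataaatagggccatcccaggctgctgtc

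The stretches are chr4:73740319-73740568 (plus) for CXCL8, chr4:76023498-76023747 (minus) for CXCL10, chr4:76036071-76036320 (minus) for CXCL11 and chr2:227813592-227813841 (plus) for CCL20. The kB motif was found in 7 of the 8 promoters, all but CXCL8, and in 5.21% of 35116 promoters of the same length. The shorter GGAATTTCC, chosen after the sequences were seen and counted on either strand, was found in 7 of the 8, all but CCL20, and in 0.413% of all promoters. It overlaps kB matches. The AP-1 motif was found in CXCL8 and CXCL11 and in 6.57% of all promoters, and the interferon motif in CXCL10 and in 3.02%. A match is a string of letters and says nothing on binding. The kB letters stood both before genes that were higher under ciclopirox and before CXCL1, CXCL3 and CXCL6, which read near background.

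Of the neutrophil chemokines, CXCL8 read 4.70 under vehicle and 10.85 under ciclopirox in SKNAS, and 5.98 and 11.88 in SKNAS/shHIF1a. It read 3.25 and 2.99 in NB1691 and 3.02 and 2.77 in SKNBE2. Both ciclopirox arrays of the SKNAS-derived lines stood above their vehicle arrays, and all 4 stood above the other lines. The change was 71.1-fold in SKNAS and 59.7-fold in SKNAS/shHIF1a. A second CXCL8 probe set read 3.34 and 9.14 in SKNAS and 3.63 and 10.58 in SKNAS/shHIF1a and stayed between 2.81 and 3.22 in the others.

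CXCL2 read 3.11 and 4.20 in SKNAS and 2.93 and 4.12 in SKNAS/shHIF1a, against 2.80 and 2.89 in NB1691 and 2.87 and 2.84 in SKNBE2. The ciclopirox arrays of the SKNAS-derived lines were the highest, 2.13-fold and 2.29-fold over vehicle. Its other 2 probe sets differed from vehicle by -0.11 to 0.36 in any line. The brightest probe set carries the array maker's suffix for probes that can match further transcripts, so its signal cannot be assigned to CXCL2 with certainty. CXCL1, CXCL2 and CXCL3 are close paralogs.

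CXCL1 lay between 2.59 and 2.83 over the 8 arrays, with changes of 0.17 in SKNAS and -0.13 in SKNAS/shHIF1a. CXCL3 lay between 2.81 and 3.30, with its highest level in SKNBE2 under ciclopirox. CXCL6 lay between 2.63 and 2.88. Each of the 3 is read by a single probe set here, and at these levels a small amount of transcript was not detectable.

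CXCL10 and CXCL11, the CXCR3 ligands, were also high in the treated SKNAS-derived lines. CXCL10 read 3.90 and 10.02 in SKNAS, 5.66 and 9.65 in SKNAS/shHIF1a, 3.21 and 2.98 in NB1691 and 2.85 and 3.05 in SKNBE2. The parent line started lower and ended higher than its derivative, so the change was 69.9-fold in SKNAS and 15.8-fold in SKNAS/shHIF1a. CXCL11 read 2.72 and 7.02 in SKNAS, 3.12 and 7.53 in SKNAS/shHIF1a, 2.66 and 2.77 in NB1691 and 3.02 and 2.76 in SKNBE2. Its vehicle arrays lay at background in all lines, and the change was 19.8-fold and 21.2-fold in the SKNAS-derived lines. Its second probe set was 3.79 and 3.74 higher there on the log2 scale.

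**Figure D1:**
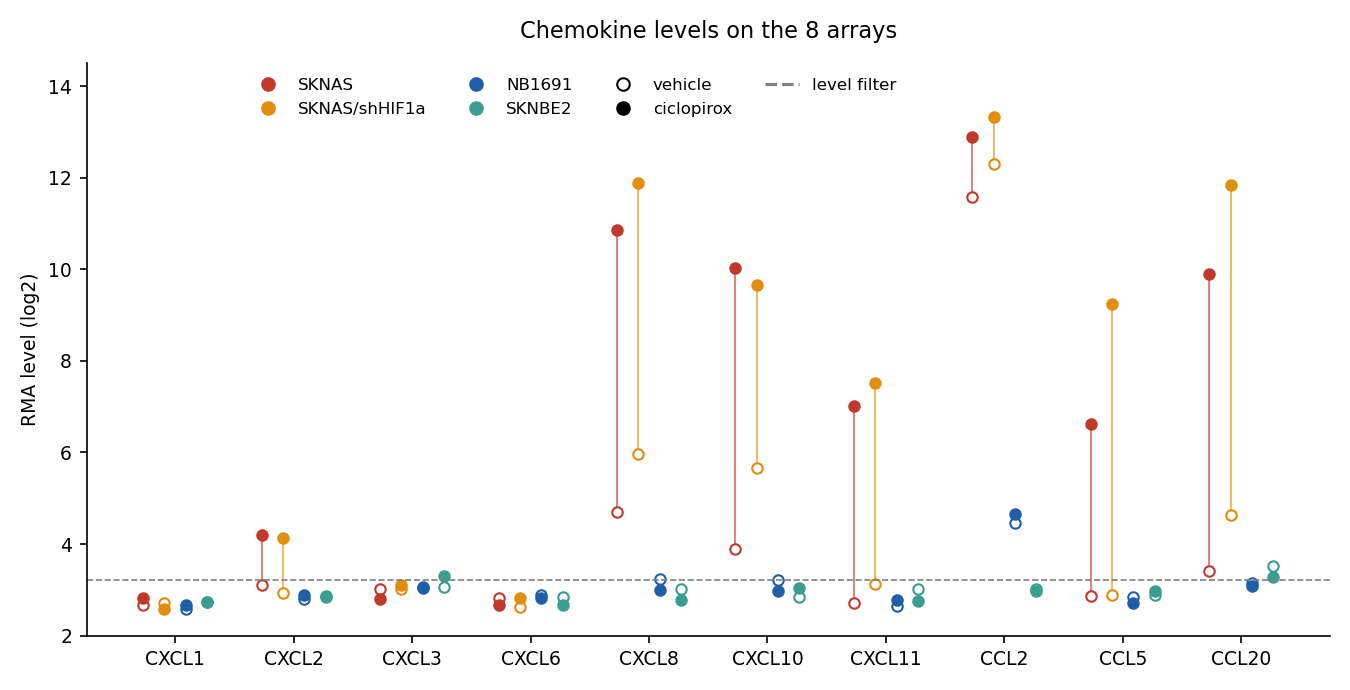
Level of each chemokine (log2, vertical axis) on the 8 arrays, coloured by line, with open circles for vehicle, filled circles for ciclopirox and a dashed line at the level filter of 3.21. CXCL8, CXCL10, CXCL11, CCL5 and CCL20 reached at least 6.62 in the treated SKNAS-derived lines, whereas CCL2 stood at 11.58 or more in these lines under either treatment.

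Among the CC chemokines, CCL20 showed the largest change of all tested genes in both SKNAS-derived lines. It read 3.42 and 9.90 in SKNAS and 4.64 and 11.85 in SKNAS/shHIF1a, which is 89.3-fold and 147.8-fold. In NB1691 it read 3.15 and 3.09 and in SKNBE2 3.52 and 3.29. The untreated parent therefore lay within the range of the other lines. CCL20 has 1 probe set here.

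CCL5 read 2.87 and 6.62 in SKNAS, 2.90 and 9.24 in SKNAS/shHIF1a, 2.85 and 2.71 in NB1691 and 2.88 and 2.97 in SKNBE2. All 4 vehicle arrays lay at background, between 2.85 and 2.90. The change was 13.5-fold in SKNAS and 81.2-fold in SKNAS/shHIF1a. The other 2 probe sets gave the same order, ending at 5.16 and 5.54 in treated SKNAS and at 8.25 and 8.81 in the treated derivative.

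CCL2 differed from the others in its starting level. It read 11.58 and 12.89 in SKNAS, 12.30 and 13.32 in SKNAS/shHIF1a, 4.47 and 4.66 in NB1691 and 3.02 and 2.98 in SKNBE2. The untreated SKNAS-derived lines already stood far above NB1691 and SKNBE2, and ciclopirox arrays were 2.48-fold and 2.03-fold above vehicle.

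Taken as a group, 7 of the 10 chemokines were at least 2-fold higher with ciclopirox in SKNAS and the same 7 in SKNAS/shHIF1a, against 0 of 10 in NB1691 and 0 of 10 in SKNBE2. Of all tested genes, 3.38% passed that fold upward in SKNAS, 5.52% in SKNAS/shHIF1a, 3.31% in NB1691 and 2.11% in SKNBE2. None of the 10 was at least 2-fold lower in any line, against 1.62% of tested genes in SKNAS, 4.31% in SKNAS/shHIF1a, 5.12% in NB1691 and 1.25% in SKNBE2. Both changes of the SKNAS-derived lines lay above both changes of the other lines for 7 of the 10, as for 21.1% of all tested genes. Being 2-fold higher in both SKNAS-derived lines held for 2.47% of tested genes, and for 1.9% when a change of less than 2-fold in both other lines was also required. Since the genes were chosen for this contrast, nothing further is read from these counts.

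The median change of the 10 was 2.53 in SKNAS and 2.59 in SKNAS/shHIF1a, against -0.04 in NB1691 and -0.03 in SKNBE2. The median over all tested genes lay between -0.03 and -0.01 in the 4 lines. In NB1691 and SKNBE2 the 10 changes lay between -0.27 and 0.23. Among the 14517 tested genes ordered by change, CCL20 was 1 in both SKNAS-derived lines, CXCL8 was 2 in SKNAS and 5 in the derivative, CXCL10 was 3 and 30, CXCL11 was 7 and 22 and CCL5 was 9 and 3. CXCL2 and CCL2 stood much lower, at 417 and 297 in SKNAS. With the 2-fold limit set at 4-fold, 5 of the 10 remained, and CXCL2 and CCL2 lay just inside the 2-fold limit while CXCL1 in SKNAS (0.17) and CXCL6 in SKNAS/shHIF1a (0.20) lay nearest outside it.

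**Figure D2:**
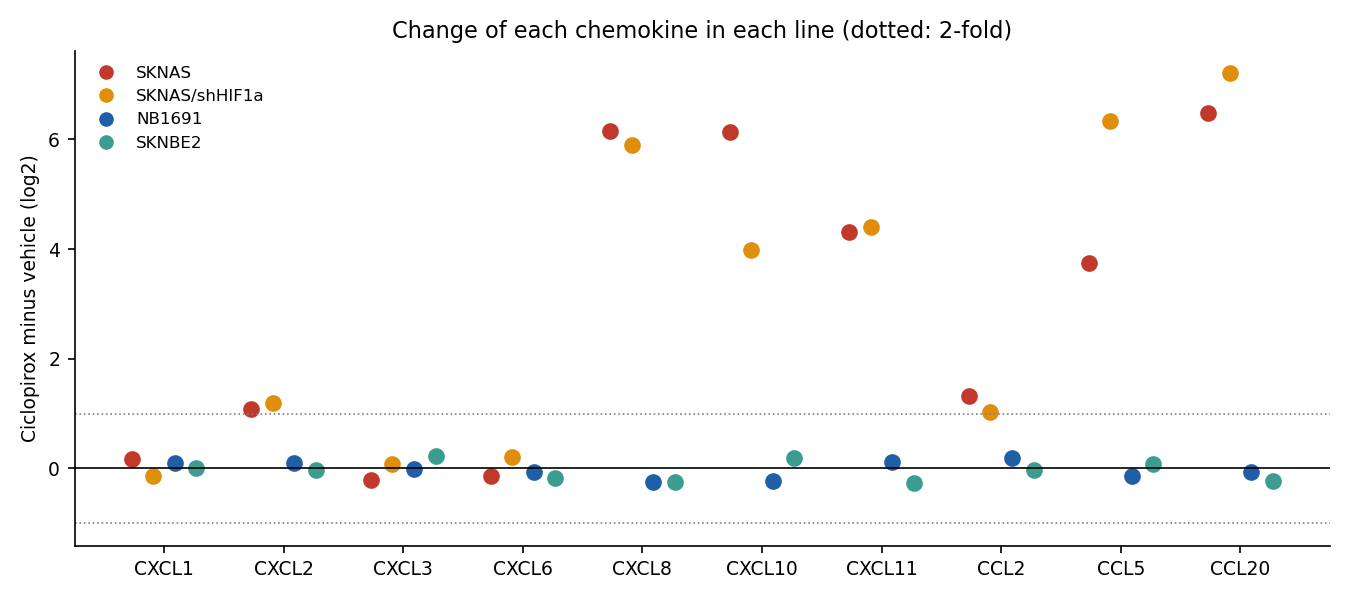
Change with ciclopirox (log2, ciclopirox minus vehicle, vertical axis) of each chemokine in each line, 1 point per line, with dotted lines at 2-fold. The points of NB1691 and SKNBE2 lie between -0.27 and 0.23, and those of the SKNAS-derived lines reach 7.21 for CCL20.

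Probe sets of 1 gene gave like changes for CXCL8, CXCL11 and CCL5 but not for CXCL2. Of the 16 probe sets of the 10 genes, the 3 of CCL5 were higher by 2.51 to 3.75 in SKNAS and by 5.64 to 6.34 in SKNAS/shHIF1a. Both probe sets of CXCL8 were higher by more than 5.80 in each of these lines.

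**Figure D3:**
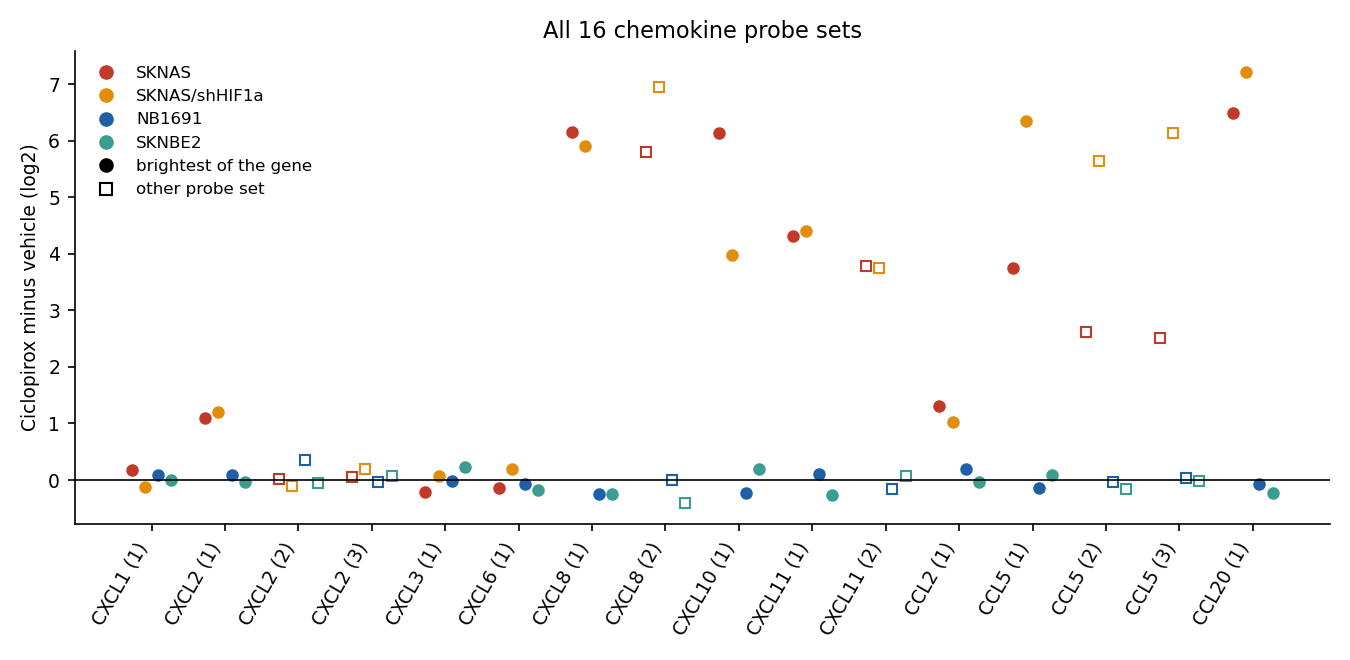
Change with ciclopirox (log2, vertical axis) for all 16 probe sets of the 10 chemokines, with filled circles for the brightest probe set of a gene, open squares for the others, and colours for the lines. Of the 3 CXCL2 probe sets 1 was higher by over 1 in the SKNAS-derived lines, whereas all probe sets of CXCL8, CXCL11 and CCL5 were higher by over 2.

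The profiles of the 7 over the 8 arrays were alike. Pearson's r between pairs of them lay between 0.63 and 0.99, with a median of 0.96 over 21 pairs. The 8 arrays share 4 lines and 2 treatments and the genes were chosen for this pattern, so r is a description. Of 4166 other tested genes spanning at least 2 log2 units, the most alike to the mean profile of the 10 were PLAAT4 (r = 0.995), RELB (0.993), NAV3 (0.992), MAP3K8 (0.991), ZNF697 (0.989), ICAM1 (0.985), LPXN (0.984) and WFDC21P (0.983). RELB is a subunit of NF-kB and changed by 2.15 in SKNAS and 2.03 in SKNAS/shHIF1a. MAP3K8 is a kinase of inflammatory signalling and was 1.42 and 1.79 higher. ICAM1, an adhesion molecule for leukocytes, read 6.10 and 9.48 in SKNAS, 7.42 and 10.52 in SKNAS/shHIF1a and between 3.92 and 4.39 in NB1691 and SKNBE2.

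The comparison of SKNAS/shHIF1a with SKNAS, averaged over both treatments, did not enter the choice of the genes and was tested. CCL20 was higher in the derivative by 1.22 under vehicle and by 1.95 under ciclopirox, a mean difference of 1.58 ± 0.23 (SE, limma, adjusted p = 0.0355). CXCL8 was higher by 1.28 and 1.02, a mean of 1.15 ± 0.17 (SE, limma, adjusted p = 0.0368). These 2 of the 7 tested chemokines passed, both upward, as did 1.34% of all tested genes upward and 2.67% in either direction. CXCL8 passed the level filter through the SKNAS-derived arrays. The spread in this fit comes from how far the ciclopirox changes differ within each pair of lines. Those changes entered the choice of the genes, so the SE and adjusted p of the 7 may be too small. Nothing is read from the calls or from the count against these shares. Leaving out any 1 of the 8 arrays ended both calls, with limma adjusted p between 0.0597 and 0.277 for CCL20 and between 0.0536 and 0.318 for CXCL8. In the 4 arrays of the SKNAS-derived lines alone, without the background arrays of the other lines, adjusted p was 0.0597 for CCL20 and 0.0536 for CXCL8. With 1 ciclopirox term common to all lines they were also lost, at 0.89 and 0.921. The second CXCL8 probe set differed between the vehicle arrays only as 3.63 against 3.34.

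The other 5 tested chemokines did not pass. CCL5 was 0.03 higher in the derivative under vehicle and 2.62 higher under ciclopirox, a mean of 1.33 ± 0.59 (SE, limma, adjusted p = 0.402). CXCL10 was 1.77 higher in the derivative under vehicle and 0.37 lower under ciclopirox, a mean of 0.70 ± 0.50 (SE, limma, adjusted p = 0.657). CCL2 differed by 0.58 ± 0.18 (limma, adjusted p = 0.219), CXCL11 by 0.45 ± 0.18 (0.348) and CXCL2 by -0.13 ± 0.16 (0.835). The spread in this fit also rests on NB1691 and SKNBE2, where most of these genes read near background. The changes themselves differed between the SKNAS-derived lines by 2.59 for CCL5 and by -2.14 for CXCL10 (derivative minus parent), with 1 array each and no test.

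**Figure D4:**
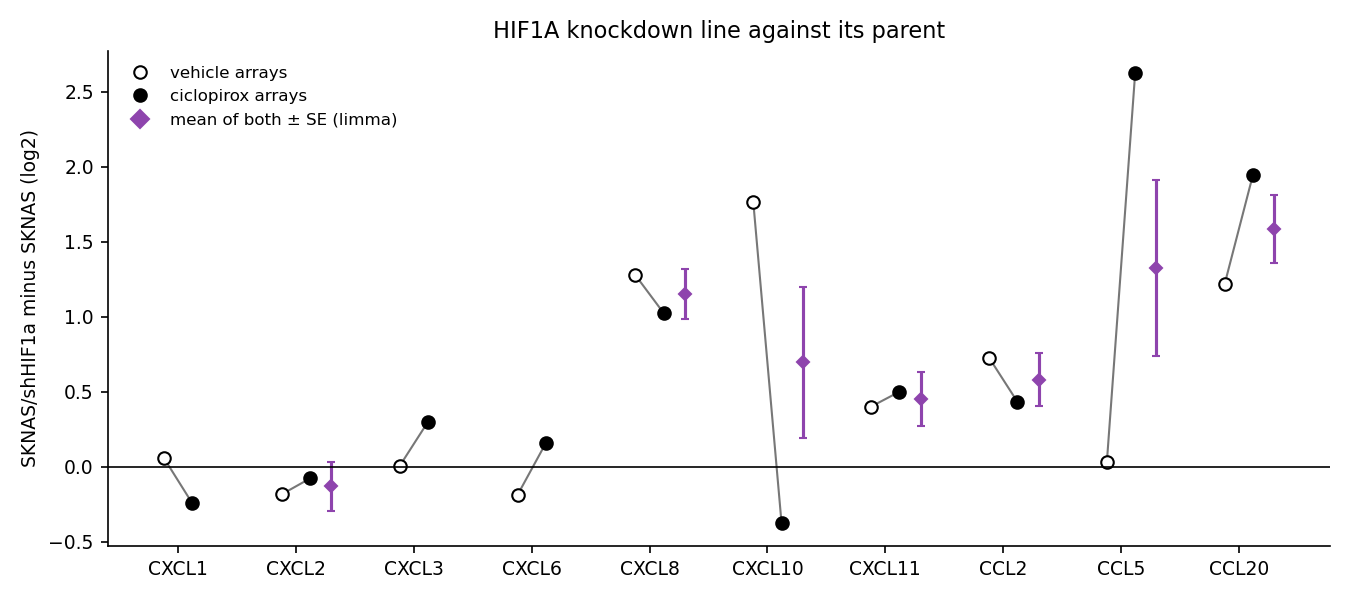
Difference SKNAS/shHIF1a minus SKNAS (log2, vertical axis) for each chemokine, with open circles for the vehicle arrays, filled circles for the ciclopirox arrays, and diamonds with bars for the mean and its SE from limma where tested. CCL20 and CXCL8 lay above 1 under both treatments, whereas CXCL10 changed sign and CCL5 differed only under ciclopirox.

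Values of markers moved with some of these comparisons, and their part in the results was not tested. Of 11 measured lymphoid and myeloid markers, 3 to 5 reached the level filter on any array. Their summed log2 level lay between 37.87 and 41.71 in the SKNAS-derived lines and between 34.42 and 36.44 in the others. The median level of the list did not separate them, at 2.98 to 3.16 against 2.97 to 3.16. PTPRC, the leukocyte antigen CD45, read 11.53 and 10.42 in SKNAS and 9.57 and 6.34 in SKNAS/shHIF1a, lower with ciclopirox in both, against 3.03 to 3.29 in the other lines. CD68, a macrophage marker, read 3.41 and 4.45 in SKNAS, 3.06 and 4.30 in SKNAS/shHIF1a, 4.31 and 5.38 in NB1691 and 3.09 and 2.93 in SKNBE2, so it was higher with ciclopirox in both SKNAS-derived lines and in NB1691. The other 9 markers of this list stayed at or below 3.60 in the SKNAS-derived lines. The 7 mesenchymal markers summed to between 63.44 and 72.00 in the SKNAS-derived lines and between 45.05 and 49.05 in the others. PRRX1, a mesenchymal transcription factor, read 8.04 to 9.96 against 2.74 to 3.09, and YAP1, a transcriptional co-activator, 8.45 to 8.90 against 3.12 to 3.67. TWIST1 went the other way, at 10.04 to 11.29 against 11.37 to 11.55. AXL read 7.41 and 8.47 in SKNAS but 2.99 and 4.31 in SKNAS/shHIF1a. In NB1691 AXL read 2.74 and 2.69, and in SKNBE2 2.94 and 4.43. FN1, fibronectin, was 0.73 higher with ciclopirox in SKNAS and 1.10 higher in SKNAS/shHIF1a, but 0.41 lower in NB1691 and 0.13 lower in SKNBE2. SNAI2 and VIM were higher with ciclopirox in all 4 lines. SNAI2 rose by 1.78 in NB1691 and 0.59 in SKNBE2, and VIM by 0.63 and 0.98. The derivative also differed from its parent in TEK, an endothelial receptor, at 6.78 and 6.97 against 3.63 and 3.21, and in KRT18, at 6.69 and 7.21 against 10.34 and 10.87. Of the other endothelial markers, PECAM1 read 3.97 and 5.46 against 3.06 and 3.77 and EMCN 6.74 and 3.77 against 3.78 and 3.47. CDH5 and VWF read at most 3.19 in both lines. Of the other epithelial markers, KRT8 read 3.51 and 3.29 against 3.86 and 5.11, and EPCAM, KRT19 and CDH1 at most 3.34. In bulk RNA, a change in the number of cells that express a gene and a change in RNA per cell cannot be told apart.

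Other genes of the same pathways were taken from 8 lists and tested with limma over all genes. The lists were chosen with earlier results of these data known, so the counts called per list are a description. RELB and ICAM1 were also named above for their likeness to the chemokines, so their p-values are no separate result. Ciclopirox in the SKNAS-derived lines called 1.42% of tested genes, 1.16% upward and 0.255% downward, and the difference of the response by origin called 5 genes (0.0344%), all larger in the SKNAS-derived lines. Of these 5, 3 are chemokines chosen on this contrast, for which the call is no result. The other two were PTGS2 and CEMIP, a hyaluronan-binding protein named after its values were seen. In NB1691 and SKNBE2 limma called 0 genes, with 1880 at an unadjusted p under 0.05. None of the 5 remained when any 1 line was left out, which also leaves fewer degrees of freedom. Several called genes named below passed the level filter through the SKNAS-derived arrays. In NB1691 and SKNBE2, IL1A, IL33, TLR2, GBP1 and ZFP36L1 lay below the filter on every array, and CCL7, RELB and IFIT3 near or below it. SKNAS and its derivative are not independent of each other. The spread in these fits also rests on NB1691 and SKNBE2, where NFKB2, for example, changed by 0.05 and -0.04.

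Of 36 other chemokine ligands, 29 were on the array and 9 were tested, and 2 rose in the SKNAS-derived lines. CCL7, a monocyte attractant encoded next to CCL2, read 4.06 and 6.96 in SKNAS, 3.84 and 9.22 in SKNAS/shHIF1a and between 2.88 and 3.21 in the others, a mean change of 4.14 ± 0.57 in the SKNAS-derived lines (SE, limma, adjusted p = 0.0468). CX3CL1, a membrane-bound chemokine, read 5.0 and 6.70 in SKNAS and 4.01 and 6.87 in the derivative, 5.47 and 5.54 in NB1691 and 6.63 and 6.79 in SKNBE2. Its change was 2.28 ± 0.30 (SE, limma, adjusted p = 0.0468), to treated levels close to those of SKNBE2. The difference by origin was not called for either (limma adjusted p = 0.22 for both). Both calls were lost without NB1691, SKNBE2 or SKNAS/shHIF1a and with no level filter. The median change of the 9 was 0.09 in SKNAS and 0.12 in SKNAS/shHIF1a.

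Of 23 chemokine receptors, 7 were tested and 0 were called for ciclopirox. CXCR4, the CXCL12 receptor, read 1.81 higher with ciclopirox in SKNAS, 0.12 in the derivative, 0.76 in NB1691 and 2.40 in SKNBE2, not past the test in either pair of lines. ACKR3, an atypical receptor of CXCL11 and CXCL12, read 4.54 and 4.71 in SKNAS and 8.85 and 9.27 in SKNAS/shHIF1a. Its knockdown difference of 4.43 ± 0.17 passed (SE, limma, adjusted p = 0.00187). The ciclopirox change in the SKNAS-derived lines did not (0.30 ± 0.17, adjusted p = 0.406). With ciclopirox ACKR3 read 1.06 higher in NB1691 and 1.05 higher in SKNBE2, also not past the test (limma, adjusted p = 0.247).

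Of 19 tested NF-kB subunits and feedback genes, 8 rose with ciclopirox in the SKNAS-derived lines, 0 fell and 0 differed by origin past the test. The median change was 1.03 in SKNAS and 1.48 in SKNAS/shHIF1a, against 0.03 in NB1691 and -0.04 in SKNBE2. NFKB2, the p100 precursor subunit, read 4.57 and 7.53 in SKNAS and 4.28 and 7.85 in SKNAS/shHIF1a, while the others lay between 3.77 and 4.03. Its change was 3.27 ± 0.21 (SE, limma, adjusted p = 0.0139), and the difference by origin was 3.26 ± 0.29 (adjusted p = 0.0921). TNFAIP3, the inhibitor A20, changed by 2.16 in SKNAS, 1.76 in the derivative, -0.69 in NB1691 and -0.55 in SKNBE2 (1.96 ± 0.18 in the SKNAS-derived lines, adjusted p = 0.0311). RELB changed by 2.09 ± 0.16 (adjusted p = 0.0235). NFKBIA, the inhibitor IkB-alpha, named after its values were seen, also read higher in the other lines, by 1.12 in NB1691 and 0.49 in SKNBE2. Without SKNAS 1 of the 19 was called, without NB1691 or SKNBE2 3 each, and without SKNAS/shHIF1a 0.

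Of 22 tested genes of interleukin-1, tumour necrosis factor and Toll-like receptor signalling, 4 rose and 0 fell in the SKNAS-derived lines. They were IL1A, IL1B, IL33 and TLR2, of which IL1B was named by rule. IL1B, a secreted activator of NF-kB, read 7.46 and 10.23 in SKNAS, 8.28 and 12.23 in SKNAS/shHIF1a and between 3.12 and 3.36 in the others, a change of 3.36 ± 0.30 (SE, limma, adjusted p = 0.0311). It was therefore present in the untreated SKNAS-derived lines. IL33 changed by 2.35 ± 0.17 (adjusted p = 0.0213) and TLR2 by 2.61 ± 0.33 (adjusted p = 0.044). IRAK2, a kinase downstream of these receptors, read 2.24 and 2.52 higher, not past the test (adjusted p = 0.0581). TNF, named after its values were seen, went from 3.56 to 5.03 and from 3.38 to 7.16, also not past the test (adjusted p = 0.0929). Without SKNAS 3 of the 22 were called, without NB1691 or SKNBE2 2 each, and without SKNAS/shHIF1a 0.

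Of 22 tested interferon and IRF genes, 3 rose and 0 fell. IRF1, a transcription factor induced by interferon and by NF-kB, read 5.92 and 8.63 in SKNAS and 5.52 and 8.36 in SKNAS/shHIF1a (2.78 ± 0.18, limma, adjusted p = 0.0139). It also read higher with ciclopirox in NB1691, by 1.07, and in SKNBE2, by 1.42. IFIT3, an interferon-induced antiviral gene, changed by 1.86 ± 0.18 (adjusted p = 0.0311). GBP1, an interferon-induced GTPase, changed by 1.19 ± 0.16 (adjusted p = 0.0468). IFNB1, interferon beta, did not pass the filter and read 2.68 to 2.79 in the SKNAS-derived lines, and MX1, chosen likewise after its values were seen, differed by -0.22 and 0.05. The counts without SKNAS, NB1691, SKNBE2 and SKNAS/shHIF1a were 1, 2, 2 and 0.

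Of 19 tested other secreted and adhesion inflammatory genes, 14 rose and 0 fell in the SKNAS-derived lines. For all 19 both changes of these lines lay above both changes of the others, as for 21.1% of all tested genes. Some of the 19, such as SELE and MMP10, passed the level filter only through treated SKNAS-derived arrays, which bears on this count. Of the listed genes below the filter, IL24 showed this order and IL6, MMP3, LCN2 and EREG did not. PTGS2, the inducible cyclooxygenase, read 5.39 and 8.79 in SKNAS, 7.96 and 11.53 in SKNAS/shHIF1a and between 2.54 and 2.71 in the others. It was the 1 listed gene outside the 10 chemokines whose difference by origin passed, at 3.52 ± 0.23 (SE, limma, adjusted p = 0.0419). This call was lost with an intensity trend and without any 1 line, and PTGS2 passed the level filter through the SKNAS-derived arrays. ICAM1 changed by 3.24 ± 0.18 (adjusted p = 0.0104). IL11, named after its values were seen for the largest change of the list, went from 5.64 to 9.58 and from 3.55 to 9.81 (adjusted p = 0.0355). IL6 did not pass the filter and lay between 2.44 and 2.74 in the SKNAS-derived lines. Without SKNAS 10 of the 19 were called, without NB1691 or SKNBE2 3 each, and without SKNAS/shHIF1a 0.

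Of 12 tested AP-1 and C/EBP factors, JUN rose by 1.88 ± 0.18 (SE, limma, adjusted p = 0.0311) and the other 11 did not pass. FOSL1 read 1.04 higher in SKNAS and 2.33 higher in SKNAS/shHIF1a, not past the test (adjusted p = 0.084). The median change of this list was 0.98 in SKNAS, 0.92 in the derivative, 0.22 in NB1691 and 0.52 in SKNBE2. Of 9 tested genes of AU-rich mRNA turnover and p38 signalling, 3 rose. ZFP36, tristetraprolin, which destabilises AU-rich cytokine mRNAs, changed by 2.12 ± 0.21 (adjusted p = 0.0311), ZFP36L1 by 1.39 ± 0.19 (adjusted p = 0.0489) and DUSP1, a MAP kinase phosphatase, by 1.43 ± 0.16 (adjusted p = 0.0389). JUN was not called without any 1 of the 4 lines. Of the second list 1 gene was called without NB1691 or without SKNBE2, and 0 without SKNAS or SKNAS/shHIF1a.

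**Figure D5:**
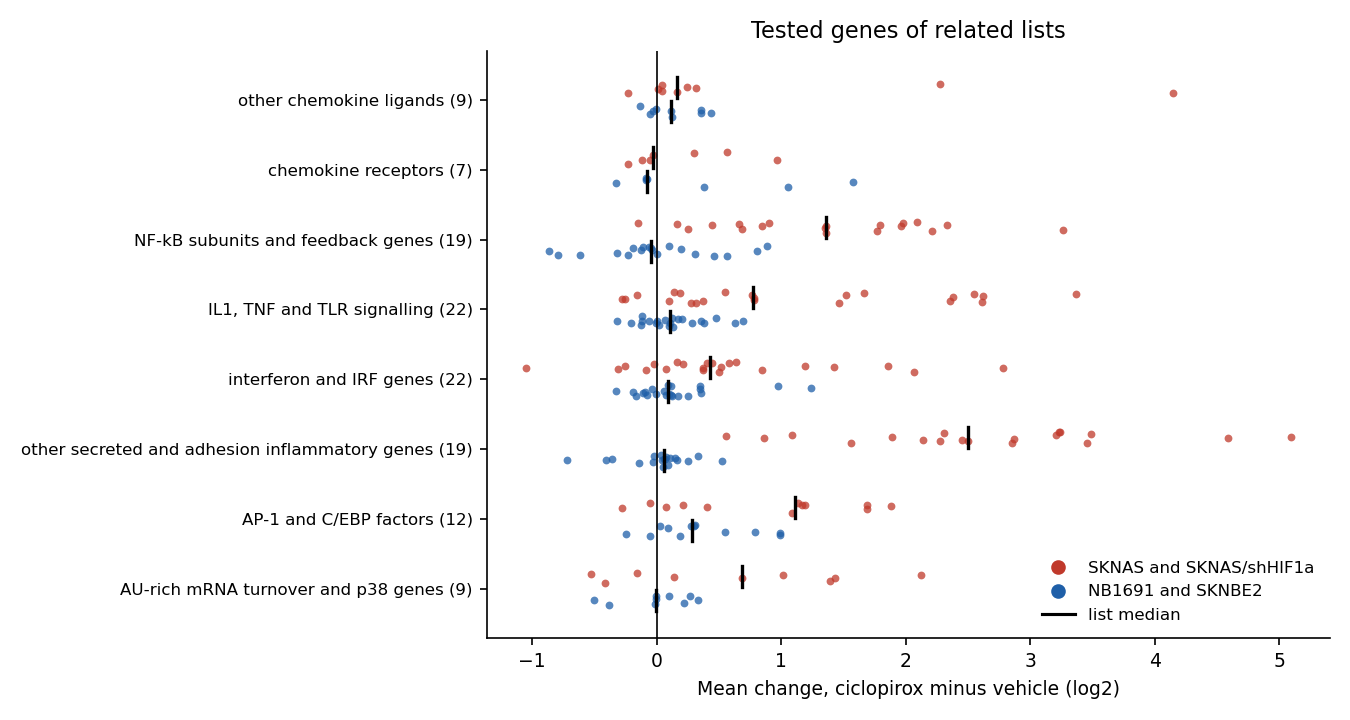
Mean change with ciclopirox (log2, horizontal axis) of the tested genes of 8 lists, red for SKNAS and SKNAS/shHIF1a and blue for NB1691 and SKNBE2, 1 point per gene with a black bar at the list median and the number of tested genes in brackets. The secreted and adhesion list shows the 14 called genes to the right, PTGS2 among them at 3.48, while its points for the other lines lie between -0.72 (PTX3) and 0.52 (LIF).

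Tested genes encoded beside the chemokines did not share their changes as a rule. Within 250 kb of the 10 genes, RefSeq places 106 other genes, of which 39 were on the array and 13 were tested. In the SKNAS-derived lines 2 of the 13 were called, against 1.42% of all tested genes. These were CCL7, upward, and ASIC2, a sodium channel subunit, downward, and 0 of the 13 differed by origin past the test. ASIC2 read 6.73 and 5.36 in SKNAS and 5.57 and 3.82 in SKNAS/shHIF1a, a change of -1.56 (limma, adjusted p = 0.0468). In NB1691 and SKNBE2 it lay between 3.14 and 4.15. Of the 13, only CCL7 was at least 2-fold higher in both SKNAS-derived lines, as were 2.47% of all tested genes. Among the neighbours below the filter, CCL11 read 0.56 higher in SKNAS and 1.32 higher in SKNAS/shHIF1a. CCL8 read 0.51 and 0.46 higher. Both lie near CCL2 and started near background.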

How the data were processed

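Total RNA of 8 samples was made into biotin-labelled cRNA (3' IVT Express) and hybridised to Affymetrix perfect-match arrays, per the labels. The deposited values are log2 signals that the authors made, per the submitters' processing notes, by RMA, which corrects background, normalizes arrays and summarises the probes of a set. The RMA version is not given in the sources used here. No scaling was added. Samples were grouped by line and treatment as labelled.

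Of 54715 probe sets, 102 were controls, 40914 carried 1 gene symbol, 864 several and 12835 none, by the platform annotation. The brightest probe set stood for each gene. The number of arrays limits the precision. limma 3.58.1 in R 4.3.3 was fitted to all 8 arrays with the line as a block, since vehicle and ciclopirox arrays come from the same line, and a ciclopirox term for each origin (2 residual and 3.29 prior degrees of freedom). Two-sided p-values were adjusted by Benjamini-Hochberg over all tested genes, with a threshold of 0.05. Figures and sequence searches used Python 3.11.15.

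The 10 genes and all lists were chosen with earlier results of these data known. Of 191 list genes, 170 had a probe set of their own and 119 were tested. Genes named were the 10, in each list those past the test of the difference or else the 2 with the largest difference, the 8 most alike in profile, the 2 neighbours with the largest difference, and HIF1A, MYC and MYCN. Others are said to be named after their values were seen, or, where a count was 5 or fewer or a gene stood for an absent marker, were added for that reason. A planned comparison of protein sequences was not run. Simulated data with 50 altered genes per fold size were used to check the fit: of 2-, 4-, 8- and 16-fold changes 2%, 72%, 98% and 98% were recovered for ciclopirox in the SKNAS-derived lines, 0%, 32%, 78% and 94% for the difference by origin and 8%, 78%, 90% and 98% for the knockdown, among 14517 genes. Unchanged genes called in these simulations numbered 7, 5 and 4.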

Additional observations from a re-analysis of the deposited data

Results flagged for a closer look

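CXCL8, CCL20 and PTGS2 had ciclopirox changes that differed between the SKNAS-derived lines and NB1691 and SKNBE2. CXCL8 was higher with ciclopirox in both SKNAS-derived lines and lower in both others, with mean changes 6.28 apart. CCL20 showed the same opposite signs, with mean changes 6.99 apart. No test of these differences is used, because the genes were chosen on this contrast, and the changes in NB1691 and SKNBE2 were at most 0.26 in size and near background. For PTGS2 the difference was tested and was 3.52 ± 0.23 (SE, limma, adjusted p = 0.0419), higher in 2 of 2 SKNAS-derived lines. That call was lost with an intensity trend and without any 1 line, and PTGS2 lay between 2.54 and 2.71 in NB1691 and SKNBE2. With 1 array per group, no array was compared with others of its group.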

How the results depend on the processing

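Of the 10 chemokines, 7 were at least 2-fold higher in SKNAS under both other scalings and 6 in SKNAS/shHIF1a, 6 in each with probe sets averaged, 5 in each at a limit of 4-fold and 7 in each at 1.5-fold. The count in NB1691 and in SKNBE2 was 0 under these alternatives. With probe sets averaged per gene the median change was 2.14 in SKNAS and 2.50 in SKNAS/shHIF1a. Centring on array medians gave -0.048 in NB1691, and quantile normalization gave -0.065 in NB1691 and -0.021 in SKNBE2. For ciclopirox in the SKNAS-derived lines 365 genes were called with an intensity trend, 687 at an adjusted p under 0.1, 6 with no cell line block and from 3 to 104 with 1 line left out (3 without SKNAS/shHIF1a, 34 without NB1691 or SKNBE2, 104 without SKNAS). For NB1691 and SKNBE2 the counts were 1 with the mean of probe sets, 5 with the trend and 1 at 0.1. The difference by origin called 9 with the mean of probe sets, 13 at 0.1, 1 with no block and 0 without any 1 line, and PTGS2 was not among those called with the trend. For the knockdown 669 genes were called at 0.1, 230 with 1 common ciclopirox term and from 59 to 393 with 1 array left out (59 without either vehicle array of the SKNAS-derived lines, 94 without either ciclopirox array). The knockdown value of CXCL10 ranged from -0.37, a reversal, to 1.77 with 1 array left out, -0.37 being the value without either vehicle array of the SKNAS-derived lines, since only the ciclopirox arrays then compare the lines. The calls for CXCL8 and CCL20 were lost in 12 and 10 of 17 alternatives each, with adjusted p from 0.0339 to 0.921 and from 0.0347 to 0.89 over all. Fits without a line or array have fewer degrees of freedom, and other causes were not tested. The counts per list under ciclopirox in the SKNAS-derived lines were recomputed by choices made after seeing the data. Signal near background limits CXCL1, CXCL3 and CXCL6, for which a small change could not be detected.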
